A study of Mus musculus with 9 samples.

Results

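Potassium, sodium and calcium channel genes, with the HCN channels, were followed across 3 genotypes of mice in barrel cortex layer IV, the input layer of the field of mouse somatosensory cortex that receives whisker input. The genes were chosen by symbol. A gene entered when a probe set of the array carried 1 gene symbol that began with Kcn or Cacn, that began with Scn followed by a number and a or b, or that belonged to the HCN family. Kcnj10, a potassium channel of glia, was left out. This gave 95 genes on 138 probe sets, of 12393 genes with a symbol of their own on the array. There were 61 potassium, 9 sodium and 23 calcium channel genes and 2 HCN genes. Of these, 52 genes were bright enough to be tested, namely 31 potassium, 5 sodium, 14 calcium and both HCN genes.

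All mice were C57BL/6 animals at postnatal day 5. They differed at Gap43, which encodes a growth cone membrane protein: the gene was intact (wild type, WT), lost from 1 allele (heterozygous, HZ) or lost from both (knockout, KO). The labels counted 9 mice, 3 for each genotype, so that every array stood for 1 animal and n = 3 for each genotype. Layer IV was cut out by laser, so that the RNA came from all cell types of the cut area, and fewer cells of a type could not be told apart from less RNA per cell. The labels do not state which part of Gap43 was removed, nor any restriction of the loss to a cell type.

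Voltage-gated channels open and close with the membrane potential. Sodium channels carry the upstroke of the action potential, potassium channels end it and set the resting potential and firing pattern, and calcium channels turn depolarization into calcium entry that drives transmitter release and gene expression. HCN channels open on hyperpolarization and carry a mixed cation current. Most channels are built of pore-forming subunits together with auxiliary subunits that set their number at the membrane and their gating. In the cortex of newborn rodents many of these currents are still growing and taking on their adult kinetics.

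Values are array signals from the MAS5 algorithm, scaled by the authors to a common level, and differences are on the log2(signal + 16) scale, which understates the change of dim genes. Tests across genes used limma with Benjamini-Hochberg adjustment over all 13576 bright probe sets, and a gene passed at an adjusted p under 0.05. The targeted gene, measured by 1 probe set, checked the KO label and could not tell HZ from WT. The Gap43 signal was 7089, 4746 and 4294 in WT, 5015, 5039 and 4389 in HZ, and 979, 1930 and 1299 in KO. It was 3.85-fold lower in KO than in WT (limma adjusted p = 0.0173), while HZ and WT overlapped. Arrays of 1 genotype correlated with each other (median r 0.963 across genes) as closely as arrays of different genotypes (0.963). The 3'/5' signal ratio of the array's control transcripts, a measure of RNA quality, was 9.94 to 15.5 on 8 arrays and 26.4 on HZ 2.

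No channel gene passed the threshold between KO and WT after adjustment over all genes, and the class medians lay on different sides of 0. Of 31 potassium channel genes, 21 were lower in KO than in WT, with a median log2 difference of -0.12. All 5 sodium channel genes were higher, with a median of 0.19, and 11 of 14 calcium channel genes were higher, with a median of 0.18. Scn1a was higher on its brightest probe set (0.15) but lower on its other bright one (-0.35). Within the calcium class the median was 0.07 for the 6 pore genes, 0.23 for the 5 auxiliary genes and 0.43 for the 3 gamma genes. Both HCN genes were higher. Over all 8503 bright genes the median was 0.02, with 4557 above 0 and 3946 below. These class medians describe the lists, and no test was made of a class.

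Past the adjusted threshold, limma called 0 of the 52 channel genes, where 1 of all 8503 genes (0.0118%), Gap43, passed. The smallest limma adjusted p among the channel genes was 0.460. At an unadjusted p under 0.05, 7 channel genes (13.5%) were higher in KO, beside 4.41% of all bright genes, and 4 (7.69%) were lower, beside 3.74%. The higher ones were Kcnmb1, Kcnip2, Kcna6, Scn2a, Cacng3, Cacng4 and Cacna1g, and the lower ones Kcnq5, Kcnk1, Kcnj9 and Cacna2d1. Of the 52 genes, 6 had a genotype whose mean on the log2 scale lay below the lowest mean kept for testing (Cacng3, Kcnip2, Kcnj4, Kcnh7, Kcns2 and Scn9a), and these had passed through their brighter genotypes. In 13 channel genes (25%) all KO arrays lay on one side of all WT arrays, beside 14% of all bright genes. With 3 arrays against 3, an exact permutation test cannot give a p under 0.1. The 7 and 4 unadjusted calls became 5 and 6 with quantile normalization or with the 3'/5' ratio in the model, 2 and 7 with all arrays set to 1 median, and 12 and 5 with arrays weighted by quality. Their sum of 11 was 7 without HZ 1 or without KO 1, 6 without KO 2 and 3 without WT 3.

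**Figure D1:**
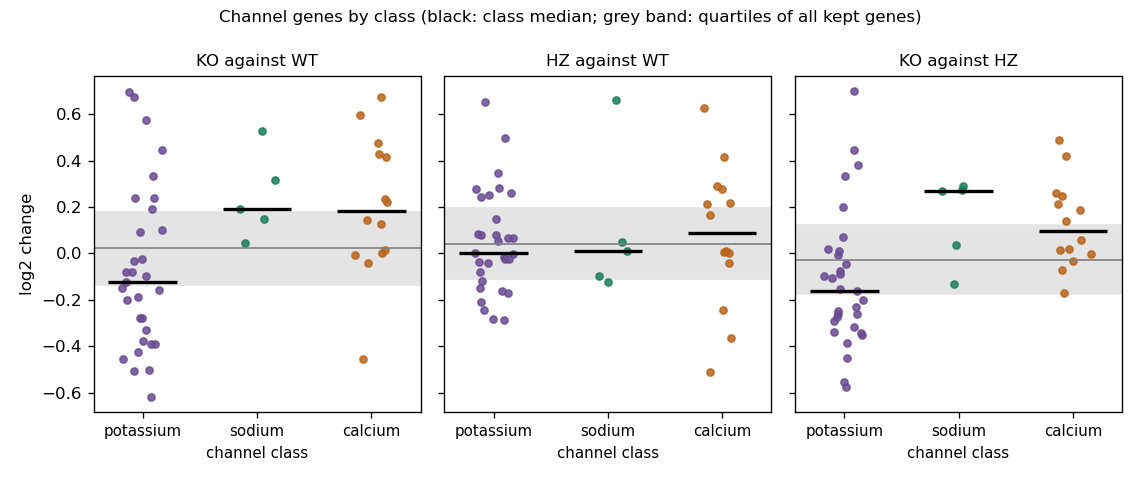
Log2 difference (signal + 16 scale) of each bright channel gene in the 3 genotype comparisons, by class; each point is 1 gene, the black line is the class median, and the grey line and band are the median and quartiles of all bright genes. In KO against WT the potassium median is -0.12 and the sodium and calcium medians are 0.19 and 0.18, with wide overlap of single genes.

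The class levels were also read array by array, as the median over a class of each gene's log2 signal after centring the gene on its mean over all 9 arrays. For potassium channels this was 0.06, 0.11 and 0.03 in WT, 0.03, 0.02 and 0.10 in HZ, and -0.13, -0.07 and -0.01 in KO. All 3 KO arrays lay below all WT and HZ arrays, and the spread between replicates was 0.049 (SD). For sodium channels the values were -0.02, 0.05 and -0.13 in WT, 0.03, -0.05 and -0.10 in HZ, and 0.10, 0.17 and 0.04 in KO. The lowest KO array was within the WT range. For calcium channels they were -0.03, 0.08 and -0.16 in WT, -0.00, 0.03 and -0.11 in HZ, and 0.07, -0.04 and 0.13 in KO. KO and WT overlapped there too, and the SD between replicates was 0.075 for sodium and 0.096 for calcium channels.

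**Figure D2:**
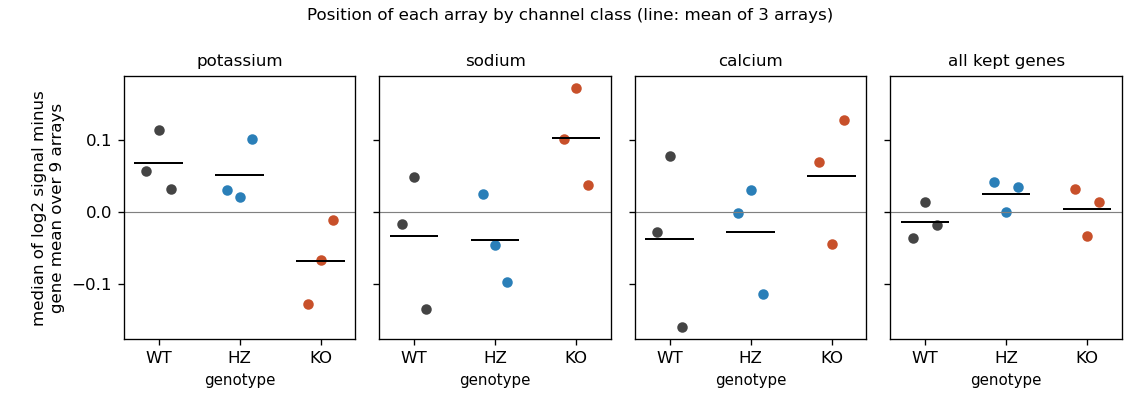
Median centred log2 signal of each channel class on each of the 9 arrays, with all bright genes for reference; each point is 1 array and each line the mean of a genotype (n = 3). The 3 KO arrays are the 3 lowest for potassium channels, at -0.13, -0.07 and -0.01.

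The signs of the class medians in KO against WT were kept under every alternative and without each array, but their sizes moved. The potassium median was -0.04 without KO 2, -0.05 without WT 2, -0.21 without KO 3 and -0.22 without WT 3. It was -0.04 with array weights or with dim genes included, and -0.28 with only the brightest 40% of probe sets. The sodium median was 0.35 without WT 2, 0.09 without WT 3 and 0.32 with array weights. With arrays set to 1 median, 21 of 31 potassium genes were still lower, 4 of 5 sodium genes and 9 of 14 calcium genes were higher.

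Marker genes of other cell types were read on the same arrays. Summed signals are over all listed markers found on the array, dim ones included. Of 12 astrocyte markers 10 were bright, and Slc1a2 and Gjb6 were dim. In KO against WT, 9 of the 10 were below 0 and 6 of those were at an unadjusted p under 0.05, beside 3.74% of all bright genes, with a median of -0.38. Kcnj10, the glial potassium channel left out of the channel genes, was 1 of the 6, at -0.63 ± 0.20 (limma adjusted p = 0.518). The summed signal of all 12 was 15491 to 20510 in WT, 14927 to 15520 in HZ and 10705 to 15403 in KO. The astrocyte gap junction gene Gja1 was at 3819, 4592 and 5081 in WT and at 2298, 2527 and 1731 in KO, with a log2 difference of -1.04 (limma adjusted p = 0.114). Of 7 layer IV markers 4 were bright and Rspo1 was dim, and 3 of the 4 were below 0 in KO against WT. Of these, 1 (Rorb) was at an unadjusted p under 0.05, beside the same 3.74%. Rorb was at 541, 460 and 589 in WT, 709, 518 and 601 in HZ, and 325, 356 and 302 in KO. Its KO to WT log2 difference was -0.66 ± 0.17 (limma adjusted p = 0.435). The 5 layer IV markers on the array had sums of 2473 to 2770 in WT, 3214 to 3668 in HZ and 1525 to 2778 in KO. Of 7 markers of excitatory cortical neurons 3 were bright and Camk2a was dim. All 3 bright ones were above 0, and 1 was at an unadjusted p under 0.05. Over all bright genes 4.41% were above 0 at such a p. The 4 on the array had sums of 2077 to 2743 in WT, 2471 to 2970 in HZ and 3129 to 3958 in KO. The 8 general neuron markers had sums of 24633 to 27742 in WT, 23566 to 27715 in HZ and 20122 to 30079 in KO, which overlapped, with 3 of the 8 below 0. Of the 5 above 0, 2 were at an unadjusted p under 0.05, beside the same 4.41%. The part of these cell types in the channel medians was not tested.

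The summed signals of the other marker lists overlapped between KO and WT. The 12 endothelial and mural markers had sums of 4457 to 4894 in WT, 4566 to 5378 in HZ and 3990 to 5066 in KO. Of the 10 bright ones 7 were below 0 in KO against WT, and Pecam1 and Abcc9 were dim. For 9 oligodendrocyte lineage markers the sum was 5259 to 7417 in WT, 5228 to 6293 in HZ and 3881 to 5488 in KO. Of the 8 bright ones 3 were below 0, and Mog was dim. For 10 microglia markers the sum was 1609 to 3402 in WT, 1779 to 2172 in HZ and 1524 to 1834 in KO. All 4 bright ones were below 0, and the dim ones were Aif1, Itgam, Cx3cr1, C1qa, C1qc and Trem2. For 12 interneuron markers the sum was 5503 to 9859 in WT, 6387 to 8537 in HZ and 5356 to 8762 in KO. Of the 11 bright ones 6 were below 0, and Pvalb was dim. For 6 thalamic neuron markers the sum was 2884 to 3989 in WT, 3360 to 3968 in HZ and 2376 to 3330 in KO. The 2 bright ones were both below 0. At an unadjusted p under 0.05, 2 oligodendrocyte lineage, 2 interneuron and 1 thalamic marker were lower in KO than in WT, beside 3.74% of all bright genes. On the higher side was 1 interneuron marker, beside 4.41%. No endothelial, mural or microglia marker was at such a p.

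Of the potassium channel genes, 20 encode voltage-gated pore-forming subunits, and 11 of these were bright. In KO against WT, 7 of the 11 were lower and 4 higher, with a median of -0.16. Kcnq5, of the family that carries the M-current (a slow current that restrains repetitive firing), had the smallest p among the lower channel genes. Its signal was 441, 444 and 539 in WT, 380, 504 and 383 in HZ, and 302, 275 and 331 in KO. Every KO array lay below every WT and HZ array. The KO level was 1.54-fold lower than WT, a log2 difference of -0.62 ± 0.17 (SE; 95% interval -0.99 to -0.25), at limma adjusted p = 0.460.

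Upstream sequence was set beside the 4 potassium channel genes of smallest p in KO against WT, 3 of them lower and 1 higher, so that lower genes and a higher one stand side by side. Each is the 250 bases before the most upstream start in RefSeq (build GRCm38.p6), 5' to 3' on the gene's strand, with CG dinucleotides and the TATA box motif TATAAA in capitals. Kcnq5 is at chr1:21962651-21962900 on the minus strand, with 3 CG dinucleotides. Kcnk1 is at chr8:125994852-125995101 on the plus strand, with 0. Kcnj9 is at chr1:172329323-172329572 on the minus strand, with 5, and has TATAAA starting 168 bases before the start. Kcnmb1 is at chr11:33962763-33963012 on the plus strand, with 1.
Kcnq5: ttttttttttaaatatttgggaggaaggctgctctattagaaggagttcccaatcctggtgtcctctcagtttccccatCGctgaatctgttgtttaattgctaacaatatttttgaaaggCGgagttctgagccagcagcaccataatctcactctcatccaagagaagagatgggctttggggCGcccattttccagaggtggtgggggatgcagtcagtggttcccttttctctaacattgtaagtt
Kcnk1: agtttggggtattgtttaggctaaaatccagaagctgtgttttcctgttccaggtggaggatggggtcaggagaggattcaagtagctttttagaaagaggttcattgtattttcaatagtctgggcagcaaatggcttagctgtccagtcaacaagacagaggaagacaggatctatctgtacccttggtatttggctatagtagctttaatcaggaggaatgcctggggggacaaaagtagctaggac
Kcnj9: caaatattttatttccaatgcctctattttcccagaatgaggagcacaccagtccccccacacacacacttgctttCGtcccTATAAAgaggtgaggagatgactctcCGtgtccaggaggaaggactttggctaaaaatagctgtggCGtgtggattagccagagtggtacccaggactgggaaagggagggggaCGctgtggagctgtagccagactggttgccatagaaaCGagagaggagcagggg
Kcnmb1: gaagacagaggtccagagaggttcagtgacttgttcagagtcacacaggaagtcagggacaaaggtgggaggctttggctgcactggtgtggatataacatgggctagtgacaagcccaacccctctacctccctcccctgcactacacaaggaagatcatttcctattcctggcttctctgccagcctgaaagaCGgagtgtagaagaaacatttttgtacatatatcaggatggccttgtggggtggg
All 4 windows, of the 3 lower genes and the higher one alike, had few CG dinucleotides for their base composition (observed over expected 0.245, 0.00, 0.303 and 0.0627). Low ratios were also frequent among the bright channel genes. Of the 52 bright channel genes, 42 had such a sequence, and 16 of these (38.1%) reached an observed over expected ratio of 0.6, beside 68.1% of 6886 bright genes and 45.2% of 17492 protein-coding genes. The median GC content was 61.6% in channel genes and 60% in bright genes. Among potassium channel genes 10 of 27 reached the ratio, and the shares of the other classes are not given here. Only 4 sodium channel genes had a sequence, and 71.4% of the bright calcium channel genes did. The GC box GGGCGG, which itself holds a CG, was found on either strand in 20 of the 42 windows (47.6%), beside 59.6% of bright genes and 42.7% of protein-coding genes. TATAAA was found in 2 (4.76%), beside 6.93% and 12.4%. A match is a string of letters in the window and not a measured binding site.

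Among the ether-a-go-go relatives, Kcnh7 was at 158, 138 and 133 in WT, 104, 154 and 137 in HZ, and 84.9, 91.7 and 127 in KO, with all KO arrays below all WT arrays. The log2 difference of -0.45 ± 0.22 was at limma adjusted p = 0.647, and the KO mean lay below the lowest mean signal kept for testing, 117. Kcnh2, which encodes the ERG channel of the heart and brain, was at 199, 186 and 144 in WT, 165, 234 and 258 in HZ, and 176, 106 and 151 in KO. Its KO to WT log2 difference was -0.28 ± 0.23, with overlapping arrays.

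Kcnd2, the pore-forming subunit of an A-type current in pyramidal cell dendrites, was at 3338, 2344 and 3501 in WT, 2927, 3271 and 2878 in HZ, and 2644, 3143 and 2370 in KO. The genotypes overlapped, at a log2 difference of -0.16 ± 0.17 between KO and WT. All 3 of its bright probe sets were below 0 in KO against WT, from -0.48 to -0.16. Kcna2, a channel of axons beside the node of Ranvier, was at 135, 218 and 141 in WT, 236, 106 and 186 in HZ and 164, 119 and 152 in KO, without separation.

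The voltage-gated genes on the higher side included members of the Kcna and Kcnc families. Kcna6 was at 158, 214 and 152 in WT, 185, 147 and 220 in HZ, and 236, 248 and 240 in KO. Every KO array lay above every WT and HZ array, with a log2 difference of 0.45 ± 0.20 from WT (limma adjusted p = 0.613). Kcnc1, a fast channel that allows high firing rates in parvalbumin interneurons, was at 357, 472 and 419 in WT, 548, 556 and 674 in HZ, and 532, 471 and 469 in KO. Its highest values were in HZ, and KO lay above WT by 0.24 ± 0.16 with overlapping arrays. Kcna7 had a log2 difference of 0.67 ± 0.44 between KO and WT, but its WT arrays ran from 52.6 to 269 and the difference was 0.10 without WT 2 and 1.12 without WT 1.

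**Figure D3:**
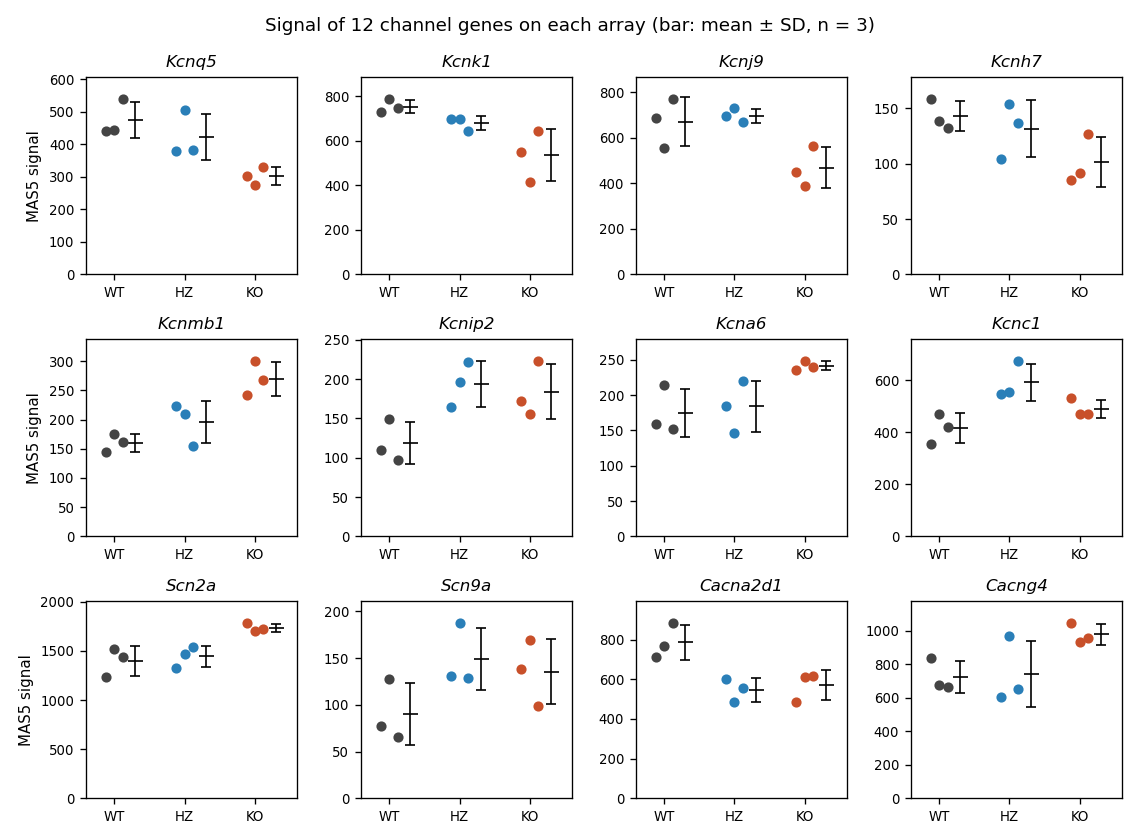
MAS5 signal (linear scale from 0) of channel genes on each array by genotype; points are arrays (n = 3), with the mean and SD. KO arrays of Kcnq5 (275 to 331) lie below all WT arrays (441 to 539), and KO arrays of Kcnmb1 (242 to 300.2) lie above all WT arrays (145 to 175).

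The 9 genes for calcium- or sodium-activated potassium channels included 7 bright ones, of which 5 were lower and 2 higher in KO (median -0.20). Kcnmb1, a beta subunit of the large-conductance BK channel best known from smooth muscle, had the smallest p of all channel genes. Its signal was 145, 175 and 162 in WT, 223, 209 and 155 in HZ, and 242, 300.2 and 267 in KO. All KO arrays lay above all WT and HZ arrays. KO was 1.62-fold above WT, a log2 difference of 0.70 ± 0.19 (95% interval 0.29 to 1.10), at limma adjusted p = 0.460. A second, dim probe set of the gene differed by 0.25 on the same scale, from arrays at 23.2 to 74.5 in WT and 26.5 to 93.4 in KO.

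The other BK genes gave smaller differences. Kcnma1, the pore of the BK channel, was at 337, 336 and 373 in WT and 319, 325 and 386 in KO, and its 2 bright probe sets disagreed in sign (-0.03 and 0.26). Kcnmb4, the beta subunit of brain BK channels, was at 1794, 2029 and 1287 in WT and 1232, 1430 and 1751 in KO, a log2 difference of -0.20 ± 0.18. Kcnmb2 was at 463, 362 and 497 in WT and 500, 480 and 526 in KO, a difference of 0.19 ± 0.19. Kcnn2, a small-conductance channel behind the afterhyperpolarization, was at 196, 228 and 244 in WT, 153, 216 and 172 in HZ, and 146, 181 and 177 in KO. All its KO arrays lay below all WT arrays, at a difference of -0.38 ± 0.19 (limma adjusted p = 0.658).

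Among 12 inward rectifier genes 4 were bright, and these split into 2 above and 2 below 0 (median 0.00). Kcnj9 encodes GIRK3, a subunit of the G protein-gated potassium channel that inhibitory receptors open. Its signal was 685, 557 and 771 in WT, 695, 729 and 669 in HZ, and 451, 388 and 566 in KO. The highest KO array, 566, overlapped the lowest WT array, 557, and all KO arrays lay below all HZ arrays. The difference from WT was -0.51 ± 0.18 (limma adjusted p = 0.536). Its partner subunits gave smaller values. Kcnj3 was at 336, 369 and 308 in WT and 323, 288 and 331 in KO (-0.10 ± 0.19). Kcnj6 was at 175, 184 and 174 in WT and 209, 177 and 191 in KO (0.10 ± 0.18).

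All 3 bright genes for two-pore potassium channels, which set the resting leak, were lower in KO (median -0.39), and 5 more were dim. Kcnk1, the weak inward rectifier TWIK-1, was at 729, 788 and 747 in WT, 698, 698 and 643 in HZ, and 550, 415 and 646 in KO. WT was highest and both other genotypes lay wholly below it, with only KO 3 (646) reaching the HZ range. The KO difference from WT was -0.50 ± 0.17 (limma adjusted p = 0.530), or -0.33 without KO 2, and that of HZ was -0.15 ± 0.17. Kcnk2, the mechanically gated TREK-1, was at 2070, 1298 and 1297 in WT, 1619, 1790 and 1195 in HZ, and 989, 1378 and 1126 in KO. WT 1 stood well above the others, and the difference of -0.39 ± 0.22 had limma adjusted p = 0.695 and was -0.17 without WT 1.

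Auxiliary subunits of voltage-gated potassium channels had 6 bright members of 12, of which 4 were lower and 2 higher (median -0.08). Kcnip2, a calcium-binding partner of A-type channels, was at 110, 149 and 96.9 in WT, 164, 196 and 222 in HZ, and 173, 156 and 223 in KO. Both HZ and KO lay wholly above WT, KO by 0.58 ± 0.22 (limma adjusted p = 0.537). The WT arrays were near the lower limit of signals tested. A dim probe set of Kcnip2 differed from WT by -0.22 in KO and 0.14 in HZ, with overlapping arrays. Its relative Kcnip1 was at 360, 364 and 321 in WT and 183, 346 and 282 in KO, a difference of -0.39 ± 0.21, and all 3 of its bright probe sets were below 0 (-0.39 to -0.20). The difference was -0.15 without KO 1. Kcnip4 differed by 0.09 ± 0.23. The beta subunits Kcnab1 and Kcnab2, which bind Kcna channels, differed by -0.08 ± 0.24 and -0.08 ± 0.27.

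**Figure D4:**
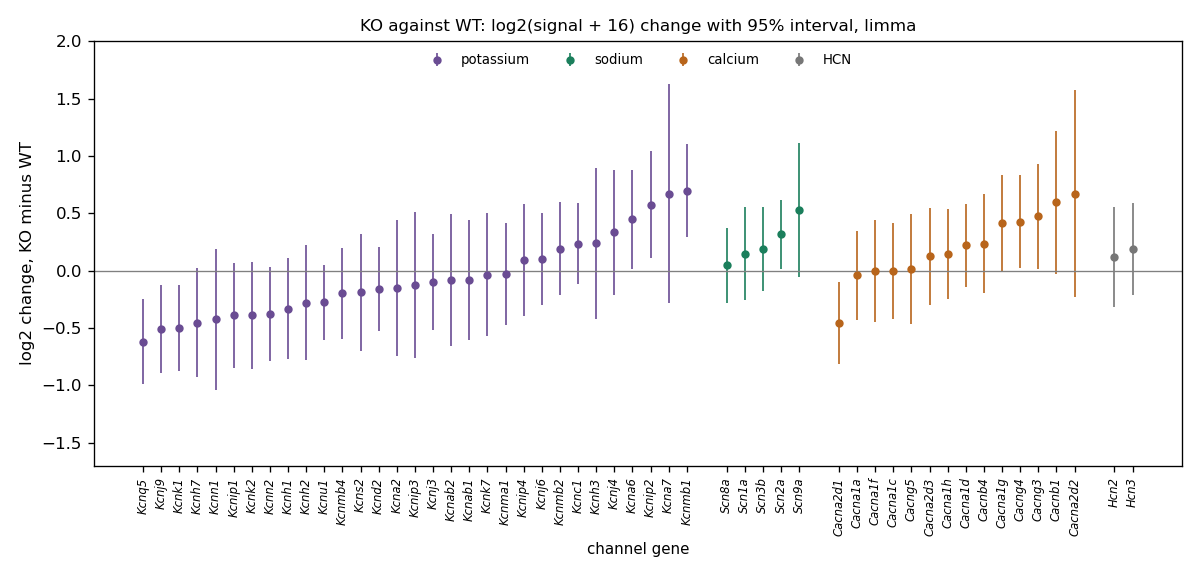
Log2 difference between KO and WT (signal + 16 scale) for each bright channel gene, with its 95% limma interval (n = 3 arrays per genotype), ordered within class. Most intervals span 0, and Kcnq5 (-0.62) and Kcnmb1 (0.70) lie farthest from 0 relative to their intervals.

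Among sodium channels, 4 of 8 pore-forming genes and the auxiliary subunit Scn3b were bright. Scn2a, the main pore of immature excitatory axons, was at 1232, 1524 and 1439 in WT, 1322, 1469 and 1541 in HZ, and 1784, 1703 and 1727 in KO. Every KO array was above every other array. The difference from WT was 0.32 ± 0.14 (95% interval 0.01 to 0.62), or 1.24-fold, at limma adjusted p = 0.613. Its second probe set was dim and differed by 0.09.

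The KO and WT arrays of the remaining sodium channel genes overlapped. Scn8a, the pore that takes over at mature axon initial segments, was at 863, 903 and 819 in WT, 981, 836 and 795 in HZ, and 817, 985 and 874 in KO (0.05 ± 0.15). Scn1a, the main pore of fast-spiking interneurons, was at 490, 451 and 411 in WT and 422, 638 and 465 in KO (0.15 ± 0.19), while its other bright probe set gave -0.35. Scn3b, a beta subunit prominent in young brain, was at 3411, 4202 and 2682 in WT, 3512, 3074 and 2903 in HZ, and 3701, 3465 and 4465 in KO (0.19 ± 0.17). Scn9a, best known from pain-sensing neurons, was at 77.2, 128 and 65.7 in WT and 138, 169 and 99.3 in KO (0.53 ± 0.27, limma adjusted p = 0.664), with its WT mean below the lowest mean kept.

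Of 9 calcium channel pore genes 6 were bright, and 4 of these were higher and 2 lower in KO (median 0.07). Cacna1g, a T-type channel that opens at low voltage and supports burst firing, was at 357, 428 and 301 in WT, 419, 497 and 404 in HZ, and 608, 404 and 460 in KO. KO 1 was the highest and KO 2 overlapped WT, with a difference of 0.42 ± 0.19 (limma adjusted p = 0.622), or 0.26 without KO 1. Cacna1h, another T-type gene, differed by 0.14 ± 0.18. Of the L-type genes, Cacna1d was at 663, 925 and 680 in WT and 836, 913 and 871 in KO (0.22 ± 0.17). The L-type genes Cacna1c and Cacna1f differed by 0.00 ± 0.19 and -0.01 ± 0.21. Cacna1a, the P/Q-type pore of presynaptic terminals, was at 319, 299 and 252 in WT and 294, 252 and 296 in KO (-0.04 ± 0.18).

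Among auxiliary calcium channel subunits 5 of 6 were bright, 4 higher and 1 lower (median 0.23). The lower one was Cacna2d1, the alpha2delta subunit that binds gabapentin and also a receptor for astrocyte thrombospondins. Its signal was 711, 766 and 883 in WT, 601, 483 and 556 in HZ, and 484, 613 and 616 in KO. Both HZ and KO lay wholly below WT, KO by -0.45 ± 0.17 (limma adjusted p = 0.537). A dim probe set of Cacna2d1 differed from WT by -0.002 in KO and -0.04 in HZ, with overlapping arrays. Cacna2d3 was at 823, 624 and 708 in WT, 543, 576 and 534 in HZ, and 752, 602 and 1044 in KO, so that its KO and WT arrays overlapped (0.12 ± 0.20). Cacnb1 was at 337, 291 and 173 in WT, 495, 388 and 349 in HZ, and 294, 633 and 334 in KO (0.59 ± 0.29, limma adjusted p = 0.647). A dim probe set of Cacnb1 went the other way, from 53.4 to 80.1 in WT to 13.6 to 40.4 in KO (-1.18). Another, dimmer still, differed by 0.16. Cacnb4, a beta subunit of presynaptic channels, differed by 0.23 ± 0.20.

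All 3 bright gamma genes of 8 were higher in KO (median 0.43). Cacng3 and Cacng4 encode proteins that escort AMPA receptors to the synapse rather than regulate calcium channels alone. Cacng4 was at 837, 679 and 664 in WT, 607, 969 and 653 in HZ, and 1046, 933 and 955 in KO. All KO arrays lay above all WT arrays, and HZ 2 reached the KO range. The difference was 0.43 ± 0.19 (limma adjusted p = 0.610). Cacng3 was dimmer, at 108, 104 and 77.6 in WT, 107, 116 and 140 in HZ, and 120, 158 and 142 in KO, a difference of 0.48 ± 0.21 (limma adjusted p = 0.614). Its WT mean of 96.3 lay below the lowest mean kept, so that it entered the test through its HZ and KO arrays. Of the HCN genes, Hcn3 was at 486, 621 and 517 in WT and 549, 688 and 619 in KO (0.19 ± 0.19). Hcn2 was at 163, 186 and 142 in WT and 191, 187 and 158 in KO (0.12 ± 0.20). Both HCN genes overlapped between genotypes.

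The class medians lay closer to 0 in HZ against WT. By class the median log2 difference was 0.00 for potassium channels, with 16 genes above 0 and 15 below, 0.01 for sodium channels and 0.09 for calcium channels, beside 0.04 for all bright genes. The signs of these small medians turned without single arrays, and the potassium and sodium medians were -0.08 and -0.08 with all arrays set to 1 median. Limma called 0 of the 52 genes after adjustment, as it called 0 of all 8503 (0%), and the smallest adjusted p was 0.789. At an unadjusted p under 0.05, 4 channel genes (7.69%) were higher in HZ, beside 4.09% of all bright genes, and 1 (1.92%) was lower, beside 1.94%. The 4 higher ones included Kcnip2 and Scn9a. The WT means of these genes on the log2 scale lay below the lowest mean kept, and they had passed through their brighter genotypes. The arrays of the pair did not overlap in 7 channel genes (13.5%), beside 13.3%. The 5 unadjusted calls became 3 without HZ 2.

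Those 5 genes were Kcnc1, Kcnip2, Scn9a, Cacnb1 and Cacna2d1. Kcnc1 was higher in HZ than in WT by 0.50 ± 0.16 and Kcnip2 by 0.65 ± 0.22, with arrays that did not overlap. The limma adjusted p was 0.789 for both. Scn9a was at 131, 187 and 128 in HZ, above WT by 0.66 ± 0.27 (limma adjusted p = 0.789). Cacnb1 was higher by 0.63 ± 0.29, or 0.36 without WT 3. Its 2 dim probe sets differed by -1.14, with all HZ arrays below all WT arrays, and by 0.04. Cacna2d1 was lower by 0.51 on the log2 scale, with an SE of 0.17 (limma adjusted p = 0.789). On the bright probe sets of Cacna2d1 and Kcnip2 both HZ and KO lay wholly on one side of the WT arrays, which both comparisons share. The KO arrays of Cacnb1 overlapped WT on its bright probe set.

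KO against HZ gave class medians of -0.16 for potassium channels (8 above 0, 23 below), 0.27 for sodium channels (4 above, 1 below) and 0.10 for calcium channels (10 above, 4 below), beside -0.03 for all bright genes. The potassium median was -0.25 without HZ 2, and -0.26 with only the brightest 40% of probe sets. The sodium median was 0.17 without HZ 1, 0.10 without KO 2 and 0.04 with dim genes included. The calcium median was 0.17 without KO 1 or without HZ 2, 0.16 without KO 3 and 0.05 without HZ 3. Limma called 0 of the 52 genes after adjustment, beside 1 of all 8503 (0.0118%), and the smallest adjusted p was 0.471. At an unadjusted p under 0.05, 3 channel genes (5.77%) were higher in KO, beside 3.56%, and 3 (5.77%) were lower, beside 4.08%. Arrays did not overlap in 9 genes (17.3%), beside 14.5%. The 6 unadjusted calls became 2 without KO 2.

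The 3 lower genes were Kcnj9, Kcnq5 and Kcnh2. The KO to HZ log2 difference was -0.58 ± 0.18 for Kcnj9 (limma adjusted p = 0.471) and -0.45 for Kcnq5 (limma adjusted p = 0.575). It was -0.55 ± 0.23 for Kcnh2 (limma adjusted p = 0.610), whose arrays overlapped. The 3 higher genes were Kcnmb1, Cacna2d3 and Cacng4. Their differences were 0.44 ± 0.19, 0.49 ± 0.20 and 0.42 ± 0.19, at limma adjusted p of 0.618, 0.590 and 0.631. That of Cacna2d3 was 0.28 without KO 3. HZ and WT arrays overlapped for Kcnj9 and Cacng4, with HZ to WT differences of 0.07 and 0.01.

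The HZ mean lay between those of WT and KO in 26 of the 52 channel genes (50%), beside 34.4% of all bright genes. Kcnq5, Kcnk1, Kcnmb1 and Scn2a were among them, and Kcnj9, Kcnip2 and Cacna2d1 were not. All of these genes had been named for a small p in KO against WT. The median size of the KO to WT difference was 0.24 for channel genes and 0.16 for all bright genes. Its part in the share of HZ means in between was not tested. The median SD between arrays of 1 genotype was 0.24 on the log2 scale for channel genes and 0.23 for all bright genes, and it ran from 0.10 to 0.73. Of 10 channel genes with several bright probe sets, 8 had the same sign of KO to WT difference on all of them. The exceptions were Kcnma1 and Scn1a. The sign agreed in 4 of the 10 for HZ against WT and in 9 for KO against HZ.

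The 10 bright channel genes not described singly had KO to WT log2 differences of -0.42 to 0.67 and HZ to WT differences of -0.08 to 0.41. Their smallest limma adjusted p was 0.693. They were Cacna2d2, Cacng5, Kcnip3, Kcnn1, Kcnu1, Kcnj4, Kcnk7, Kcnh1, Kcnh3 and Kcns2. A further 43 channel genes were too dim to test, with mean signals of 4.05 to 122 and a median of 42.5. Brightness was ranked by the mean of log2(signal + 16), so that a few plain means lie above the lowest kept value of 117. The 43 dim genes included Kcna1, Kcnd3, Scn3a, Cacna1b, Cacna1e and Cacng2.

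Genes that work beside channels were read from lists. Of 27 partners that anchor, traffic or modulate channels 15 were bright, 7 above and 8 below 0 in KO against WT (median -0.03). Fgf12, an intracellular modulator of sodium channels, was the 1 member at an unadjusted p under 0.05, with a difference of -0.47 ± 0.22 (limma adjusted p = 0.622), where 8.15% of all bright genes were at such a p in either direction. Sptbn4, the spectrin that anchors channels at axon initial segments, was at 346, 562 and 391 in WT and 556, 521 and 529 in KO (0.33 ± 0.18, limma adjusted p = 0.692). Of 20 ion pumps and transporters 11 were bright, 3 above and 8 below 0 (median -0.11), and 0 were at an unadjusted p under 0.05 by limma, beside the same 8.15%. The chloride extruder Slc12a5 was at 3378, 3316 and 3452 in WT, 3650, 3305 and 3248 in HZ, and 3060, 2849 and 3046 in KO. Its KO arrays lay below all others, at a difference of -0.18 ± 0.12 (limma adjusted p = 0.740). The chloride importer Slc12a2, which precedes it in development, differed by 0.20 ± 0.23. No gene of either list passed after adjustment.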

How the data were processed

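Layer IV was laser microdissected, RNA was purified with RNeasy columns and amplified by 2-cycle cDNA synthesis, per the labels' protocols. Per the submitters' processing notes, the authors made the deposited intensities, which are on a linear scale, with the MAS5 algorithm of Affymetrix Expression Console; its version is not given. The mean of each array without its highest and lowest 2% was 500.2, so arrays were already scaled to 1 level. Dim MAS5 signals are noisy, and the number of arrays limits precision.

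Genotypes were taken from titles. Intensities were used as log2(signal + 16). Of 22690 probe sets, 64 controls were left out and the 60% of highest mean log2(signal + 16) were kept (13576 probe sets, 8503 genes, called bright); the lowest such mean corresponds to a signal of 117. R 4.3.3 with limma 3.58.1 fitted genotype on all 9 arrays (eBayes with an intensity trend, 6 residual and 6.94 prior degrees of freedom), 2-sided, adjusted by Benjamini-Hochberg at 0.05. The script was tested on simulated data. Where a gene had several probe sets, the 1 of highest mean stood for it. Names came from the platform annotation; all 95 members matched the RefSeq table (GRCm38.p6), which also gave the upstream sequences.

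The members and lists (channel partners, ion pumps and 9 marker lists) were chosen with earlier results of these data known. Genes named singly were those of smallest p per class, direction and comparison (4 potassium, 2 sodium, 2 calcium), and both HCN genes. A list of main cortical subunits was named too, and of each partner list the smallest p in each direction. Gja1, Rorb and Kcnj10 were named after their values were seen. Alternatives changed the pseudocount, filter, scaling, trend, array weights, probe set choice, RNA quality term, groups in the fit and replicate block, and left out each array.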

Additional observations from a re-analysis of the deposited data

How the results depend on the processing

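No channel gene passed the adjusted threshold under the 12 alternatives or without any of the 9 arrays; 53 of 64 tested gene values kept 1 sign throughout, and the 11 that turned were at most 0.15 in size. Values below are KO against WT on the log2 scale unless said otherwise.

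With array weights, 17 channel genes were at an unadjusted p under 0.05, and the potassium median was -0.044, the sodium median 0.323, Cacna1a 0.017, the potassium median in HZ against WT 0.118 and Scn3b in HZ against WT 0.055. With arrays set to 1 median, the potassium median was -0.180, Cacna1c -0.056 and Scn8a -0.011, and in HZ against WT the potassium median was -0.084, the sodium median -0.076 and Scn2a -0.038. Quantile normalization gave Cacna1c -0.045 and 3 unadjusted calls in HZ against WT. A pseudocount of 64 gave Cacna1c -0.000333. With the 3'/5' ratio in the model, Cacna1c was -0.00897, Kcnma1 0.030 and the HZ against WT potassium median 0.062. With a gene's probe sets averaged, Kcnma1 was 0.115, Scn1a -0.100 and the KO against HZ sodium median 0.166. With dim genes included, the potassium median was -0.041, or -0.106 in KO against HZ, the KO against HZ sodium median was 0.036, and 8 genes were called in HZ against WT at an unadjusted p. With the brightest 40%, the potassium median was -0.276, or -0.262 in KO against HZ, with 7 unadjusted calls, and 3 in HZ against WT. Fewer genes are tested there; the cause of the other shifts was not tested.

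Without single arrays, unadjusted calls ran from 3 to 15, from 3 to 5 in HZ against WT and from 2 to 7 in KO against HZ. Medians ran from -0.220 to -0.037 for potassium and from 0.086 to 0.348 for sodium channels. In KO against HZ they ran from -0.248 to -0.126 and from 0.104 to 0.270. In HZ against WT they ran from -0.018 to 0.086 for potassium and from -0.023 to 0.167 for calcium channels. Cacna1a ran from -0.134 to 0.030, Cacna1c from -0.120 to 0.107, Kcna2 from -0.267 to 0.052, Kcnab2 from -0.280 to 0.083, Kcnma1 from -0.110 to 0.022, Scn1a from -0.021 to 0.268 and Scn8a from -0.026 to 0.106. Scn2a and Scn3b in HZ against WT ran from -0.039 to 0.113 and from -0.263 to 0.059, and Cacna1h and Scn9a in KO against HZ from -0.169 to 0.045 and from -0.289 to 0.053.

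Arrays of the same replicate number did not deviate together (r -0.26 to 0.11 over 9 pairs), so the numbers were not taken to pair mice. A fit with the replicate block gave 8 unadjusted calls in place of 11.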
